A study of Mus musculus with 2 samples.

Results

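The mitochondrial calcium uniporter complex and the mitochondrial calcium exchangers are described here through 9 genes, Mcu, Mcub, Smdt1, Micu2, Micu3, Mcur1, Slc8b1, Letm1 and Vdac1. They were taken by gene symbol, not by any measured value, and all 9 were found among the 55536 annotated genes of the gene table. The samples were hearts of 2 male mice aged 2 months of the strain B6CASTF1/J, the F1 hybrid of a B6 and a CAST parent, obtained from The Jackson Laboratory. One total RNA-seq library was made per heart from 300 ng of RNA after ribosomal RNA was reduced. Both libraries belong to 1 group with no treatment and no second tissue, so the data give levels, ratios between genes and the spread between the 2 hearts. The labels number the 2 animals separately but carry 1 donor entry for both, so the reading that replicates 1 and 2 are 2 mice comes from the labels alone.

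Mitochondria take up calcium in steps. Channels of the outer membrane, of which VDAC1 is one, let ions reach the space between the membranes, and the uniporter of the inner membrane then passes calcium into the matrix, driven by the membrane potential. The pore is built from MCU subunits, into which the paralog MCUB can enter and lower the current. The small protein EMRE, made from Smdt1, keeps the animal pore conducting and ties it to the EF-hand gatekeepers of the MICU family, which hold the pore shut when cytosolic calcium is low. Calcium leaves the matrix through the sodium-calcium exchanger NCLX, made from Slc8b1, and the proton-coupled carrier LETM1 is also placed among the mitochondrial cation exchangers. In heart muscle this uptake is known for matching the supply of ATP to the beat.

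The sequences of the pore show how close the 2 pore genes are at the site that selects calcium. Mcu lies at chr10:59446984-59616692 and Mcub at chr3:129914960-129970206, both on the minus strand of mm10. In both, the selectivity motif is coded in exon 6. The stretches of 60 bases around it lie at chr10:59454991-59455050 in Mcu-202 and at chr3:129916984-129917043 in Mcub-201. The stretches are given 5′ to 3′ along the transcript, with the motif's 4 codons in capitals.
Mcu-202: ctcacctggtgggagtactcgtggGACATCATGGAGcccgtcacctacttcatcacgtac
Mcub-201: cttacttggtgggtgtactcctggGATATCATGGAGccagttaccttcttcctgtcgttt
Of these 60 bases 13 differed, and 5 of the 20 codons gave another amino acid. Within the motif 1 of 12 bases differed and 0 of 4 codons changed the amino acid. Over the whole coding sequence the genes were 55.1% identical at 1029 aligned bases, and the transcripts shared no word of 31 bases.

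The members' levels are given first in TPM, the relative abundance of transcripts corrected for their length, from the gene table, which a first transcript table accompanies with values for each transcript. Mcu stood at 8.18 and 8.26 TPM in replicates 1 and 2, from 668 and 766 counts. Mcub stood at 0.90 and 0.63 TPM, from 28 and 27 counts. The exact Poisson intervals of these Mcub counts ran from 18.6 to 40.5 and from 17.8 to 39.3, and cover counting error only. The hearts differed little in Mcu, and both put Mcub below 1 TPM. Within a library the ratio of Mcub over Mcu was 0.110 and 0.0763, a mean of 0.0931 ± 0.0239 (SD, n = 2 mice). The ratio was 0.0942 in the second transcript table, which holds estimated counts and TPM for each transcript. Posterior mean TPM, another estimate in the gene table, put Mcub at 1.16 TPM and the log2 ratio of Mcub over Mcu at -2.84, against -3.45 for TPM. Mcu lay near the middle of the 10970 protein-coding genes detected at 1 TPM or more in both hearts, with 48.1% of them below it. Mcub was not detected by that threshold, though it passed on posterior mean TPM, and 47.6% of all 22028 protein-coding genes were below it.

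Smdt1, the gene of EMRE at chr15:82338959-82349091, was far above the pore gene. It stood at 72.00 and 77.49 TPM, from 1323 and 1604 counts, and both values were above those of every other member but Vdac1. The ratio of Smdt1 over Mcu was 8.80 and 9.38, a mean of 9.09 ± 0.410 (SD, n = 2). Smdt1 was also the member on which the tables were farthest apart. The gene table gave 74.7 ± 3.88 TPM against 134 ± 15.2 TPM for the second transcript table (SD, n = 2 each), which put the ratio over Mcu at 14.8. When the second table's counts were divided by the effective lengths of the first transcript table, the ratio over Mcu was 9.97. Smdt1-201, the leading transcript, has only 705 bases.

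Most Smdt1 signal was on the coding transcript. Smdt1-201 held 86.2 ± 2.04% of the gene's TPM in the first transcript table and 81.5 ± 9.61% in the second (SD, n = 2 each). Smdt1-204, which is annotated as a target of nonsense-mediated decay, held 13.4 ± 1.64% in the first table and 14.8 ± 6.68% in the second. It lacks 49 bases of the first exon of Smdt1-201, at chr15:82346221-82346269 on the plus strand, which is not a multiple of 3. The stretch is shown because its absence shifts the reading frame, with the bases that Smdt1-204 lacks in capitals and the joined sequence under it.
Smdt1-201: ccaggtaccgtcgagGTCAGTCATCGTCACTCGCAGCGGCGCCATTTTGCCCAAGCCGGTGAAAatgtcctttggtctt
Smdt1-204: ccaggtaccgtcgagatgtcctttggtctt
All but 1 of the 597 bases of Smdt1-204 lie in exons of Smdt1-201, while 109 of the 705 bases of Smdt1-201 are absent from Smdt1-204. How many reads covered the bases or the junction that tell them apart was not counted. In the second table Smdt1-204 stood at 12.5 and 28.4 TPM in replicates 1 and 2, while Smdt1-201 stood at 109 and 108 TPM. Replicate 2 was thus the higher of the hearts in that table through its shorter transcripts and not through Smdt1-201.

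**Figure D1:**
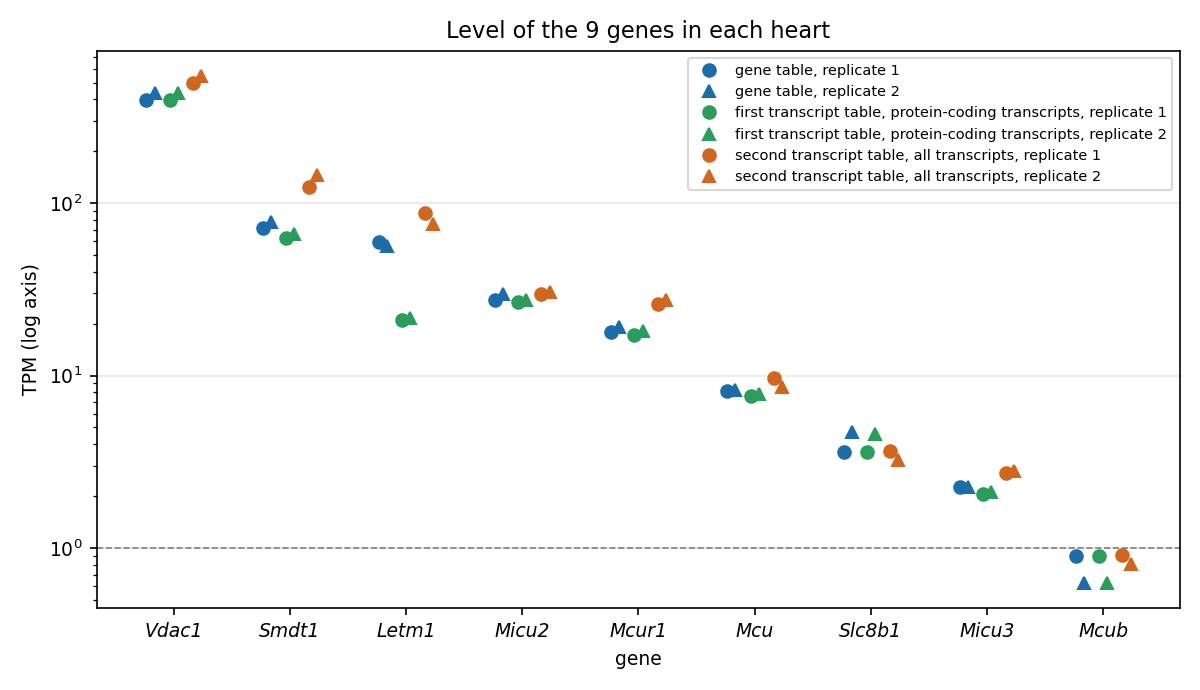
TPM of the 9 genes (log axis) in replicate 1 (circles) and replicate 2 (triangles), from the gene table, from the protein-coding transcripts of the first transcript table and from all transcripts of the second; the dashed line is 1 TPM. Vdac1 was highest at 395.72 and 437.27 TPM and Mcub lowest at 0.90 and 0.63 TPM in the gene table, and the protein-coding values of Letm1, 20.98 and 21.62 TPM, lay well under its gene-table values of 59.57 and 56.71 TPM.

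The 2 gatekeeper genes were at unlike levels. Micu2, at chr14:57916261-57999262, codes for an EF-hand protein that raises the calcium threshold of the pore. It stood at 27.49 and 29.77 TPM, from 1878 and 2209 counts. Micu3, at chr8:40307458-40386308, codes for a relative best known from brain, where it enhances uptake. It stood at 2.27 TPM in both hearts, from 161 and 183 counts. Every Micu3 value was below every Micu2 value. Micu3 over Micu2 was 0.0826 and 0.0763, a mean of 0.0794 ± 0.00447 in the gene table, against 0.0917 in the second table. Against the pore gene, Micu2 over Mcu was 3.48 ± 0.172 and Micu3 over Mcu was 0.276 ± 0.00190 (SD, n = 2 each). The coding sequences of Micu3-201 and Micu2-201 were 62.2% identical at 1242 aligned bases and shared no word of 31 bases.

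Micu2 rested on 1 transcript and Micu3 on a pair. Micu2-201 held 95.1 ± 3.63% of the gene's TPM in the first transcript table and 99.8 ± 0.324% in the second. Micu3-203 held 57.0 ± 2.32% in the first table and 51.1 ± 1.44% in the second, and Micu3-201 held 35.3 ± 0.735% and 42.7 ± 0.191% (SD, n = 2 each). Micu3-203 is an 8-exon model whose start is not complete in the annotation, with a longer last exon, and Micu3-201 has 15 exons. In Micu3-203 the 6th exon of Micu3-201 is joined to the 9th, so that 2 coding exons are left out. Exon 7 lies at chr8:40356856-40356927 and exon 8 at chr8:40359410-40359448, on the plus strand, with 72 and 39 bases, both multiples of 3. They are shown in capitals because they are the internal difference between the models.
Micu3-201 exon 7: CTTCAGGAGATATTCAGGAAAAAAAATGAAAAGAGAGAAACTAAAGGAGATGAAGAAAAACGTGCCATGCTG
Micu3-201 exon 8: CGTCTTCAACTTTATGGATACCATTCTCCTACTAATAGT
The deposited tables give no counts for single exons. The 2 tables kept the order of the models in each heart.

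Mcur1, at chr13:43538393-43560191, codes for an inner-membrane coiled-coil protein described as a scaffold of the uniporter. It stood at 17.79 and 19.07 TPM, from 2298 and 2742 counts. Mcur1 over Mcu was 2.24 ± 0.0947 in the gene table and 2.94 ± 0.361 in the second table (SD, n = 2 each). The tables parted on 1 short transcript. Mcur1-202, a retained-intron model of 579 bases, held 2.40 ± 1.65% of the gene's TPM in the first table and 26.4 ± 0.871% in the second. Mcur1-201, the coding transcript, stood at 17.6 ± 0.636 TPM in the first table and 19.2 ± 0.576 TPM in the second. The paralog Ccdc90b averaged 15.0 ± 0.636 TPM, and Mcur1 over Ccdc90b was 1.22 and 1.23.

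**Figure D2:**
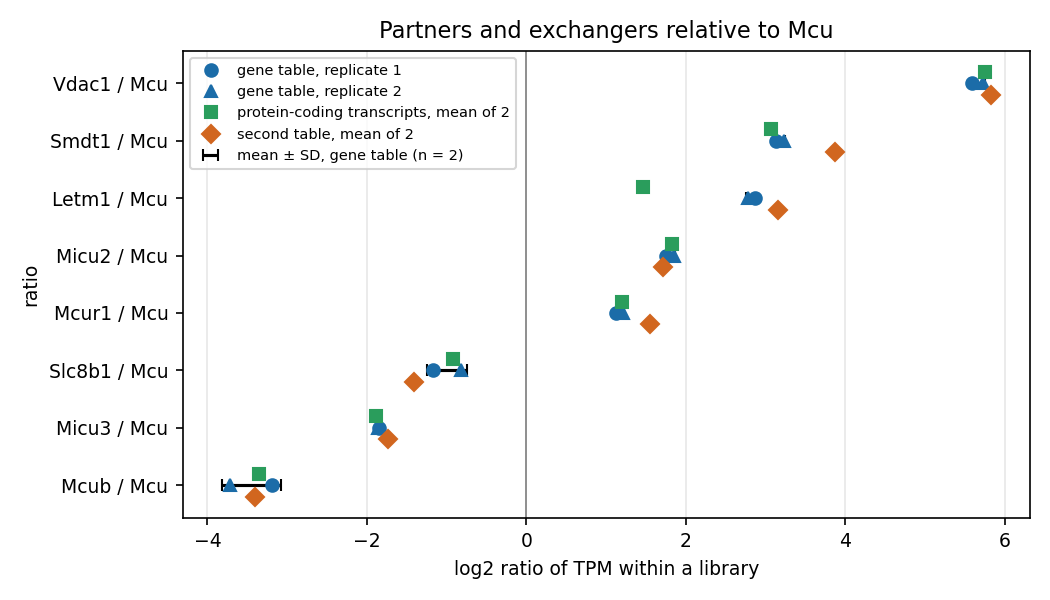
Log2 ratio of the TPM of 8 genes over Mcu within a library, with blue symbols for each replicate of the gene table and bars for their mean ± SD (n = 2), green squares for protein-coding transcripts of the first table and orange diamonds for the second table. Vdac1, Smdt1, Letm1, Micu2 and Mcur1 lay above Mcu and Slc8b1, Micu3 and Mcub below it under each of these measures, and Letm1 moved most when restricted to protein-coding transcripts.

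On the side of calcium release, Slc8b1 was low. The gene lies at chr5:120511168-120534024 and stood at 3.62 and 4.68 TPM in replicates 1 and 2, from 259 and 289 counts. Slc8b1 over Mcu was 0.443 and 0.567, a mean of 0.505 ± 0.0877 in the gene table, and 0.377 ± 0.00190 in the second table (SD, n = 2 each). Its plasma-membrane relative Slc8a1, the main sodium-calcium exchanger of heart muscle, stood at 165 ± 15.4 TPM, and Slc8b1 over Slc8a1 was 0.0250 ± 0.00220. The other relatives Slc8a2 and Slc8a3, exchangers best known from nerve and skeletal muscle, were both under 1 TPM.

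The gap between the hearts in Slc8b1 TPM was not in its counts. Scaled by TMM, edgeR's correction for library size, Slc8b1 had 6.76 CPM (counts scaled to the library) in replicate 1 and 6.42 in replicate 2, the reverse order of the TPM. The first transcript table put 1.15 counts of replicate 1 and 17.1 counts of replicate 2 on Slc8b1-206, a fragment of 378 bases, which on the TPM scale gave 0.13 and 1.74. The second table put Slc8b1-206 at 0 in both hearts and gave the gene 3.64 and 3.26 TPM. Slc8b1-201, the transcript with the longest coding sequence at 1755 bases, held 34.4 ± 14.6% of TPM in the first table and 57.5 ± 2.21% in the second. Slc8b1-202 held 17.8 ± 9.91% and 19.6 ± 13.3%, and Slc8b1-204 held 20.2 ± 11.3% and 19.6 ± 9.67%. All bases of Slc8b1-202 and all but 7 of the 2775 of Slc8b1-204 lie in exons of Slc8b1-201. Slc8b1-201 led in both hearts of the second table and in replicate 1 of the first. In replicate 2 of the first table the fragment Slc8b1-206 led with 37.2% of TPM, against 24.1% for Slc8b1-201. The shares of Slc8b1-202 and Slc8b1-204 overlapped between the hearts. Of the 31-base words of Slc8b1-201, 3.42% also occurred in other genes, 991 of them in all. The gene sharing most, Ftsj3, held 1.99% of the words and had 710 and 883 counts. Counts of the rest of these genes were not looked up, so the assignment of some Slc8b1 reads is uncertain.

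Letm1, at chr5:33739673-33782817, had far more signal than Slc8b1, but much of its gene-table level was on transcripts with little or no coding sequence. The gene stood at 59.57 and 56.71 TPM, from 4074 and 4650 counts. Letm1-205, a 642-base model annotated as a target of nonsense-mediated decay with 38 coding bases, held 36.5 ± 0.222% of TPM. Letm1-201, the full coding transcript of 5272 bases, held 36.3 ± 2.19%, and the noncoding Letm1-206 held 25.9 ± 1.86% (SD, n = 2 each). Letm1-205 led in replicate 1 with 21.62 TPM against 20.67 TPM for Letm1-201, and in replicate 2 it had 20.76 TPM against 21.43 TPM for Letm1-201, so neither led in both. Of the reads, however, Letm1-201 took 3313 of 4074 counts in replicate 1 and 3901 of 4650 in replicate 2.

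Letm1-205 and Letm1-206 overlap the coding transcript almost wholly. Of the 642 bases of Letm1-205, 638 lie in exons of Letm1-201, and so do all 747 of Letm1-206. Of the 488 bases of Letm1-202, 250 do, and 238 lie in its introns. The second table gave a like level for the coding transcript and spread the rest in another way. It gave Letm1-201 22.2 ± 0.824 TPM, Letm1-205 30.0 ± 6.21 TPM, Letm1-206 7.16 ± 7.24 TPM and Letm1-202, which the first table put at 0.255 ± 0.0212 TPM, 21.1 ± 10.1 TPM (SD, n = 2 each). On the protein-coding transcripts of the first table alone Micu2 stood at 26.86 and 27.55 TPM, above Letm1 with 20.98 and 21.62 TPM. Letm1 over Mcu was then 2.77 ± 0.00478, against 7.07 ± 0.295 for the gene table, and Slc8b1 over Letm1 was 0.193 ± 0.0284 against 0.0716 ± 0.0154.

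**Figure D3:**
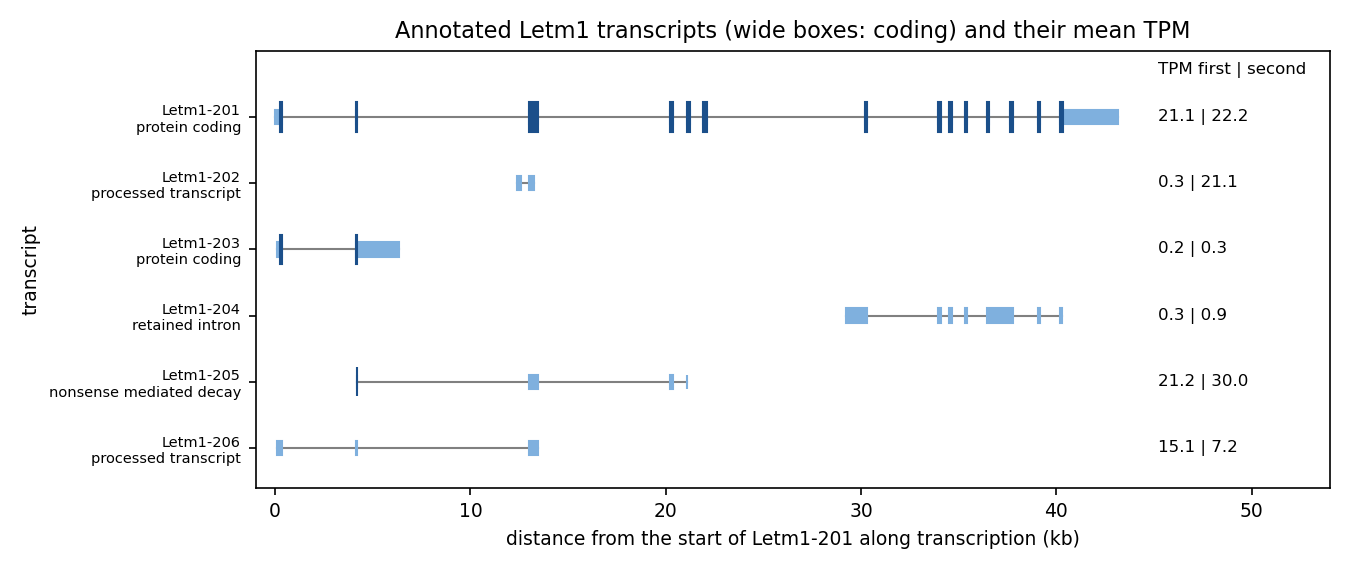
The 6 annotated Letm1 transcripts drawn by distance in kb from the start of Letm1-201 along transcription, with narrow boxes for exons, tall dark boxes for coding sequence and the mean TPM of each transcript in the first and the second transcript table at the right. Letm1-205 and Letm1-206 overlap Letm1-201 only within 21105 bases of its start, while Letm1-201 runs to 43144. They stood at 21.2 and 15.1 TPM in the first table beside 21.1 TPM for Letm1-201.

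Ghitm, an inner-membrane protein of another family also described as a calcium-proton exchanger, stood at 253 ± 9.07 TPM. Letm1 over Ghitm was 0.230 ± 0.0162 in the gene table and 0.129 ± 0.000483 on protein-coding transcripts. Of the relatives of Letm1 in sequence, Letm2 averaged 3.40 ± 0.672 TPM and Letmd1 4.77 ± 0.346 TPM, and each lay below Letm1 in both hearts.

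Vdac1, the outer-membrane channel gene at chr11:52360860-52389397, was the highest member. It stood at 395.72 and 437.27 TPM, from 22580 and 27943 counts, and 98.7% of the detected protein-coding genes lay below it. Vdac1 over Mcu was 48.4 and 52.9, a mean of 50.7 ± 3.23 (SD, n = 2). Its paralogs, which form the same kind of channel, followed with 186 ± 11.2 TPM for Vdac2 and 154 ± 1.29 TPM for Vdac3. Vdac1 held 55.0 ± 0.837% of the summed TPM of the 3 genes in the gene table and 54.2 ± 0.578% in the second table. Of the 31-base words of Vdac1-202, 10.1% also occurred in other genes. The one sharing most, Gm16102, held 2.86% of the words and had 0 and 1 counts, against 22580 and 27943 for Vdac1. Counts of the rest of these 11 genes were not looked up, so the assignment of some Vdac1 reads is also uncertain.

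Both Vdac1 transcripts with appreciable signal were coding, and they differ at the start of the protein. Vdac1-202 held 91.8 ± 1.51% of TPM in the first table and 87.8 ± 0.334% in the second, and Vdac1-201 held 7.77 ± 1.35% and 12.0 ± 0.270% (SD, n = 2 each). The coding sequence of Vdac1-201 opens 13 codons earlier, at chr11:52374263-52374301 on the plus strand. Those 39 bases are in capitals, and the coding sequence of Vdac1-202 begins at the first base in lower case.
Vdac1-201: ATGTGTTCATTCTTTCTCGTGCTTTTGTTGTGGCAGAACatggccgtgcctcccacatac
Only 36 of the 891 bases of Vdac1-201 lie outside the exons of Vdac1-202. Vdac1-201 stood at 26.97 and 38.18 TPM in the first table, against 367.34 and 396.58 TPM for Vdac1-202.

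**Figure D4:**
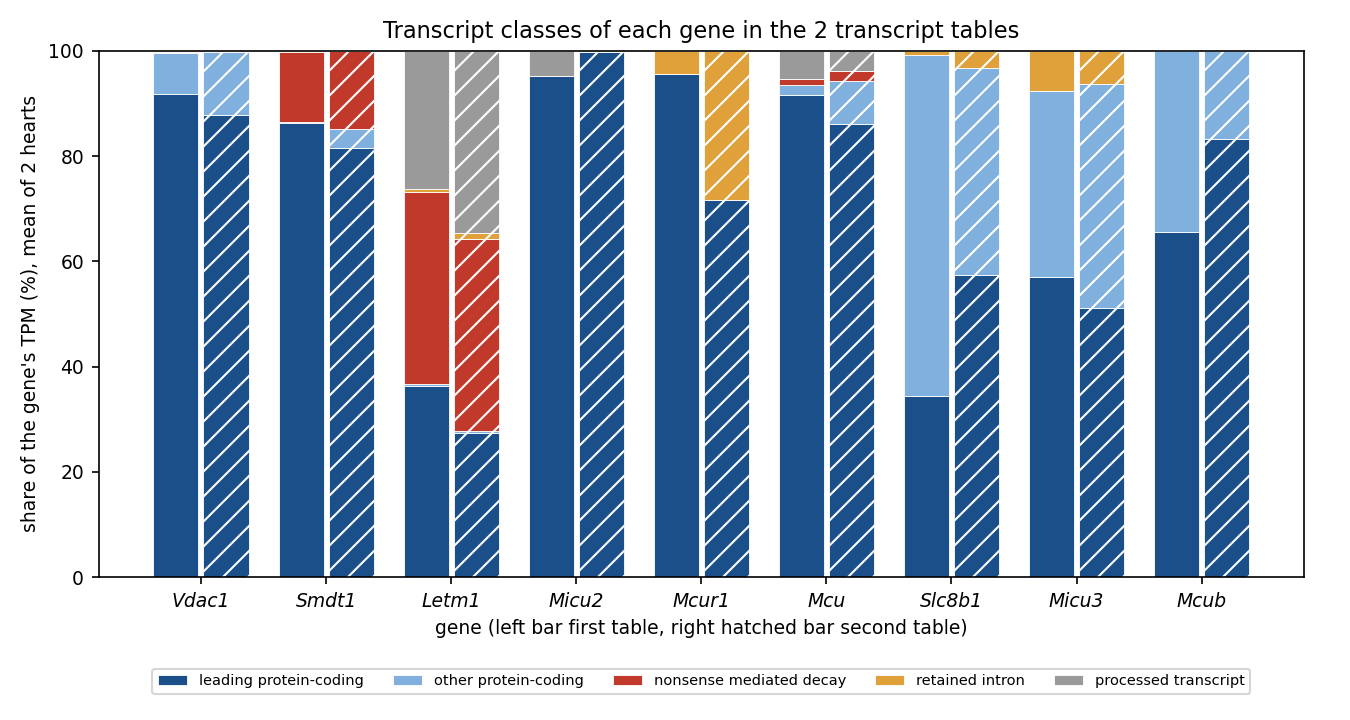
Share of each gene's TPM, in percent as the mean of 2 hearts, with plain bars for the first transcript table and hatched bars for the second. The shares are those of the leading protein-coding transcript, other protein-coding transcripts and 3 further classes of the annotation (nonsense-mediated decay, retained intron and processed transcript). The 3 further classes held most of Letm1 in both tables, protein-coding transcripts holding 36.7% and 27.7%, and Mcur1 and Slc8b1 differed most visibly between the tables.

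Across the members, 6 of 9 had 1 transcript that led in both hearts and both transcript tables, and the exceptions were Mcub, Slc8b1 and Letm1. Mcu-202 held 91.7 ± 1.17% of Mcu in the first table and 86.2 ± 11.7% in the second. For Mcub the first table placed 10.65 counts of replicate 1 and 27.00 counts of replicate 2 on Mcub-201, with 17.35 and 0 counts on Mcub-204. All bases of Mcub-204 lie in exons of Mcub-201, and with so few reads the shares cannot be read as a difference between the hearts. Of the 44 annotated transcripts of the 9 genes, 4 were at 0 in both hearts and both tables.

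In order of level the members ran Vdac1, Smdt1, Letm1, Micu2, Mcur1, Mcu, Slc8b1, Micu3 and Mcub. For each of the 8 neighbouring pairs the lower of the 2 hearts for the higher gene was above both hearts for the lower gene. Fgf20, which overlaps Micu3 on the opposite strand, was at 0.13 and 0.17 TPM, and Pheta2, which overlaps Smdt1 on the same strand, at 0.32 and 0.27 TPM, and how reads of the overlaps were assigned was not tested. The closest pair of neighbours was Smdt1 over Letm1 at 1.29 ± 0.112, and the widest Vdac1 over Smdt1 at 5.57 ± 0.104 (SD, n = 2). The same order was found in the second table, but on protein-coding transcripts Letm1 fell below Micu2, with Micu2 over Letm1 at 1.28 ± 0.00423. Of the 9 members 8 were detected at 1 TPM in both hearts, as were 49.8% of all protein-coding genes. The median of the members was 18.4 ± 0.905 TPM, against 8.69 ± 0.198 TPM for detected protein-coding genes, and 5 of the 9 members were above the median of the detected genes.

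The gene table and the second transcript table gave levels within 1.5-fold of each other in each heart for 8 of 9 members, and for 83.3% of detected protein-coding genes. The exception was Smdt1, with a log2 ratio of gene table over second table of -0.84 ± 0.0882. On the same scale Mcur1 was at -0.54 ± 0.0150, Letm1 at -0.49 ± 0.101 and Micu2 at -0.07 ± 0.0493 (SD, n = 2 each). The median over detected protein-coding genes was -0.20, so the second table was the higher for most genes.

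The hearts were compared by the log2 ratio of replicate 1 over replicate 2 in TMM-scaled counts, for genes with a mean of at least 50 counts. None of the 8 members that passed this minimum was 2-fold apart, in a comparison in which 0.57% of all genes tested were (71 of 12453). With 1 library per heart there is no test of such a difference. The members' ratios ran from -0.07 for Vdac1 to 0.08 for Slc8b1, and the median size of the ratio over all genes tested was 0.0777. Mcu was at 0.04, with a 95% counting interval from -0.12 to 0.19, and Micu2 at -0.000927, with an interval from -0.0905 to 0.0884. Only the interval of Vdac1, from -0.0996 to -0.0489, lay apart from 0, and it covers counting error but not the spread between animals. Mcub, under the count minimum, was at 0.28 with an interval from -0.53 to 1.10, which does not exclude a 2-fold higher level in replicate 1. When the spike-in counts set the scale, all 8 ratios were below 0, from -0.25 for Vdac1 to -0.0969 for Slc8b1, since this scaling moved every gene by -0.17.

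The tissue label was checked on marker genes. All 6 cardiomyocyte markers were detected, with a summed level of 26042 and 28536 TPM, while 0 of 9 markers of fast skeletal muscle, liver and lung epithelium were. Endothelial, fibroblast and macrophage markers were all detected, so the members' levels come from a mixture in which fewer cells of a type and less RNA per cell cannot be told apart. The 3 red cell markers summed to 13711 TPM in replicate 1 and 4292 TPM in replicate 2, and their part in the members' TPM was not tested. Total gene counts were 38963569 in replicate 1 and 44321172 in replicate 2.

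The members were then set beside 74 genes in 8 lists of related function. Of these 71 were detected, as were 49.8% of all protein-coding genes. Slc8a2, Slc8a3 and Slc25a31 were not compared between the hearts. None of the others was 2-fold apart, in a comparison in which 0.57% of all genes tested were. The 7 genes of the list named uniporter-associated proteins were all detected, with a median of 15.6 ± 0.170 TPM, close to that of the members. The highest of them were Ucp2 at 100 TPM, an uncoupling protein family member, Tmem65 at 53.6 TPM, an inner-membrane protein linked to sodium-calcium exchange, and Slc25a23 at 26.4 TPM, a calcium-binding ATP carrier. Efhd1, an EF-hand protein, was lowest at 1.21 TPM. Mcu, at 8.22 ± 0.0566 TPM, lay below the median of each of the 8 lists, and so did Slc8b1, Micu3 and Mcub.

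The 14 calcium-responsive enzymes and carriers of mitochondria, which respond to calcium on either side of the inner membrane, had a median of 74.2 ± 2.91 TPM, with Ogdh at 720 TPM and Idh3b at 306 TPM, both of the citric acid cycle, and Pdha1 of pyruvate dehydrogenase at 449 TPM, while the carrier Slc25a24 was lowest at 2.50 TPM. Among 9 inner-membrane proteases and chaperones, the prohibitins Phb and Phb2 stood at 146 and 107 TPM, and Afg3l2, a subunit of the m-AAA protease that removes unassembled EMRE, at 59.0 TPM. Maip1, which protects EMRE on its way to assembly, was lowest of that list at 4.24 TPM, well under Smdt1 itself at 74.7 TPM. Among 14 genes of the contacts between reticulum and mitochondria, the mitofusins Mfn2 and Mfn1 stood at 254 and 186 TPM and the chaperone Hspa9, which links VDAC to the inositol trisphosphate receptor, at 240 TPM, while of that receptor's genes Itpr1 stood at 14.8 TPM, Itpr2 at 8.75 TPM and Itpr3, the lowest of the list, at 2.22 TPM. The median of this list was 14.8 ± 0.449 TPM.

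Of 8 genes named in the permeability transition 7 were detected, with the adenine nucleotide carrier Slc25a4 at 1989 TPM, Slc25a5 at 164 TPM and the VDAC-binding hexokinase Hk2 at 136 TPM, and Slc25a31, a carrier best known from testis, at 0.085 TPM. The 8 import genes had a median of 37.6 ± 1.85 TPM, from Tomm70a at 16.4 TPM to Timm23 at 84.1 TPM and Timm17a at 136 TPM, with Tomm22 at 39.8 TPM. The 6 sarcoplasmic reticulum and plasma-membrane calcium genes had the highest median, 351 ± 6.06 TPM, with the calcium pump Atp2a2 at 4970 TPM, its inhibitor Pln at 2621 TPM and the release channel Ryr2 at 391 TPM, and the calcium channel gene Cacna1c lowest at 86.2 TPM. Vdac1, at 416 ± 29.4 TPM, was the one member above that median.

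**Figure D5:**
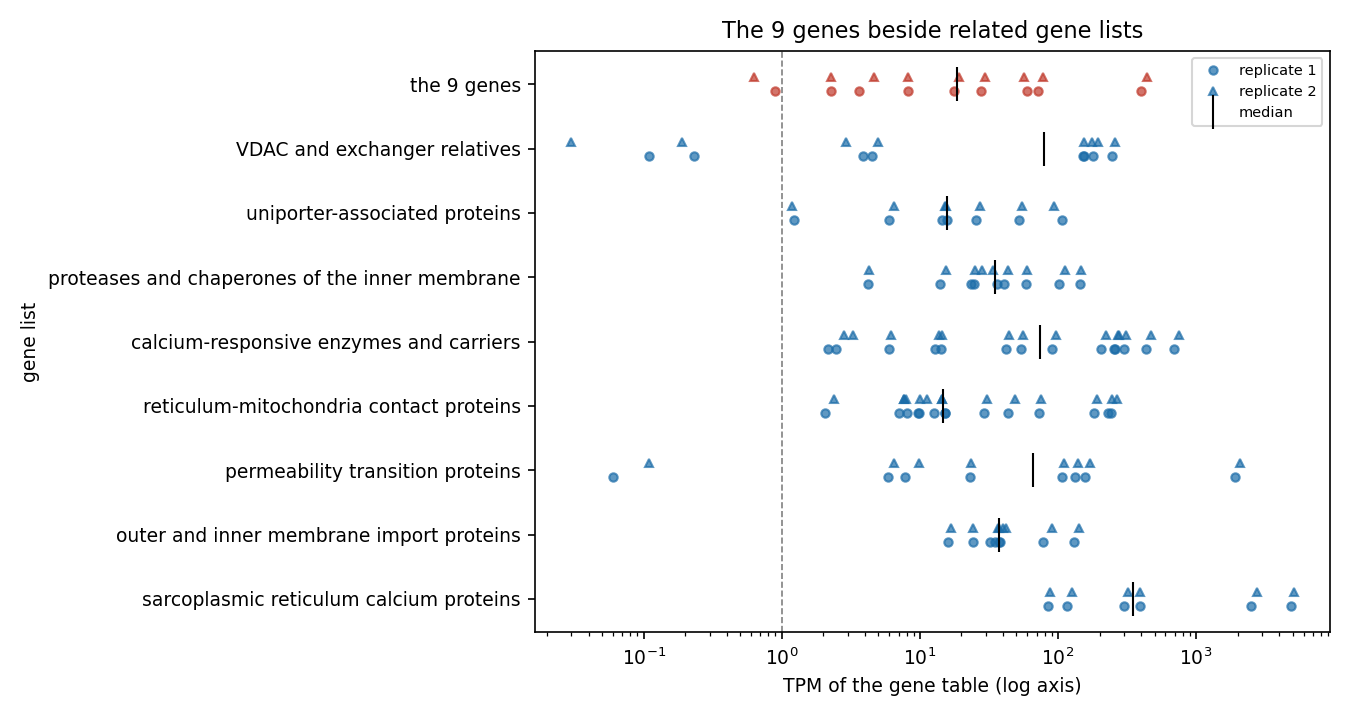
TPM of the gene table (log axis) for the 9 genes (red) and 8 lists of related genes (blue), with replicate 1 as circles, replicate 2 as triangles, black marks for the mean over the hearts of each list's median and a dashed line at 1 TPM. The members span from Mcub at 0.765 TPM to Vdac1 at 416 TPM around a median of 18.4 TPM, and the sarcoplasmic reticulum calcium proteins lie to the right with a median of 351 TPM.

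By level over the 2 libraries the nuclear protein-coding genes nearest to Mcu were Oard1 with 8.16 and 8.28 TPM, Yaf2 with 8.18 and 8.22 TPM and Heatr3 with 8.17 and 8.22 TPM. The root mean square difference in log2(TPM + 1) was 0.00313 for Oard1, 0.00442 for Yaf2 and 0.00455 for Heatr3. In all, 406 genes lay within 0.1 of Mcu on that scale, so with 2 libraries the 3 nearest have no special place.

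RefSeq promoter windows of 300 bases on GRCm38.p6 were found for 7 of the 9 genes, 2 of them for Vdac1. Their GC content ran from 51% for Mcub to 72.3% for Mcur1, against a median of 52.7% over all promoters. Mcub also had the fewest CG dinucleotides, 11, and Mcur1 the most, 32, against a median of 7. The windows of Smdt1, with 29, and Vdac1, with 24 and 26, lay between them.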

How the data were processed

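Total RNA-seq of 2 mouse hearts was analysed. Reads had been quantified on mm10 against GENCODE M21, per the file descriptions. How reads from the alleles of the CAST parent matched this reference was not tested, and the sequences shown are those of the reference. The authors deposited a gene table and a first transcript table with expected counts, TPM (also as posterior means) and FPKM, and estimated counts and TPM in a second transcript table, per the file headers. For the aligner, the quantifiers and strand-specific counting, details were not given in the sources used here.

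From these, levels were averaged over the hearts, and ratios were taken within each library. Expected counts were rounded and scaled by TMM in edgeR 4.0.16 (R 4.3.3) with a prior count of 0.5. Clopper-Pearson intervals at 95% were added; the counts carry no molecular identifiers, so these cover counting error only. The ratio code was tested on simulated data. Alternatives were the second table, posterior mean TPM, FPKM, rescaled TPM, other count minimums and priors, DESeq2 1.42.0, total and spike-in scaling, and each heart left out. Sequences came from the GENCODE transcripts, and promoters from RefSeq. Python 3.11.15, numpy 2.4.6, pandas 2.3.3 and scipy 1.17.1 were used.

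All 9 members are named, with their paralogs, the 3 highest and the lowest of each list, the 3 genes nearest to Mcu in level, and transcripts with 10% or more of a gene's TPM in either table; other transcripts and genes named were chosen after their values were seen. The members and lists were chosen with earlier results of these data known. Other genes of the complex were not analysed here.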

Additional observations from a re-analysis of the deposited data

How the results depend on the processing

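No paired analysis was possible because the 2 hearts form 1 group with no second group to pair them with. The order, ratios and detection of the members were recomputed under the other tables, estimates, units and transcripts and without each heart. The ratios were also recomputed as log2(TPM + 1). The 10 ratios, those over Mcu with Slc8b1 over Letm1 and Micu3 over Micu2, kept their sign. Micu2 over Letm1 did not, at 0.493 in the gene table and 1.28 on protein-coding transcripts. FPKM, rescaled TPM, log2(TPM + 1) and leaving out a heart could not change a sign that both hearts shared. Only the second table, posterior mean TPM and protein-coding transcripts could have changed one. Scalings, priors and count minimums bear only on the difference between the hearts. All 8 neighbouring pairs of the order remained separated except on protein-coding transcripts, a measure chosen after the data were seen, where 7 did, Letm1 and Micu2 trading places. Leaving out a heart could not undo a separation, and FPKM and rescaled TPM keep the order within each heart. Under posterior mean TPM and under TPM rescaled to nuclear protein-coding genes 9 members reached 1, against 8 in the gene table, the added one being Mcub. The rescaling raised every member by the same factor within a library (Mcu to 21.1 TPM and Mcub to 1.96 TPM), so that crossing comes with the scale. With the second table's counts over the first table's effective lengths, also chosen after the data were seen, 6 of 9 members were within 1.5-fold of the gene table, against 8. A count minimum of 10 in place of 50 left 411 of 15736 genes 2-fold apart between the hearts, against 71 of 12453, and none was a member. Leaving out either heart gave 8 or 9 members whose leading transcript was coding, since in the first table Letm1-205 led in replicate 1 only. Depth limits Mcub, with 28 and 27 counts.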
